A study of Mus musculus with 4 samples.

Results

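The classical cadherins are described here in mouse embryonic fibroblasts (MEFs) in which the melanocyte transcription factor Mitf could be switched on. The group holds 9 genes, chosen by name: the type I cadherins Cdh1, Cdh2, Cdh3 and Cdh4, the type II cadherins Cdh6, Cdh10, Cdh11 and Cdh19, and Cdh13, a relative that is held to the membrane by a GPI anchor. They are 9 of the 22835 genes whose exons were kept, and 135 of their 205 annotated exons are listed, among 226463 exons in all. RNA was sequenced from 4 conditions with 1 library each. MEF are wild-type fibroblasts at passage 3. Dox (-) are untreated Mitf knock-in MEFs at passage 5, and Dox (+) are the same kind of knock-in MEFs at passage 5 after 6 days of Dox. All of these were grown in 10% serum. PMel are primary mouse melanocytes at passage 5, grown in 5% serum with 50 ng/ml of TPA, and were not analysed here. The knock-in cells carry the M2rtTA transactivator at ROSA26 and M-Mitf, the melanocyte isoform, behind a Dox-responsive TetO element at Col1a1. The study made these MEFs from chimeric embryos that it obtained by injecting KH2 embryonic stem cells of a single correctly targeted clone into host blastocysts. The knock-in cells carry mCherry and puromycin resistance, by which the study separated them from host cells. Dox (-) and MEF therefore differ in genotype, origin and passage, and these cannot be told apart. The MEF values that the study lists for genes mostly differ from those of the deposited column labelled MEF, so what is said of MEF describes the library labelled MEF.

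Cadherins are cell surface proteins whose outer repeats bind calcium and pair with cadherins of a neighbouring cell. Inside the cell, the tails of type I and type II cadherins bind beta-catenin and p120-catenin, and alpha-catenin links this complex to actin. Epithelia are known for E-cadherin (Cdh1), fibroblasts for N-cadherin (Cdh2) and cadherin-11 (Cdh11), and melanocytes of the epidermis hold on to keratinocytes through E-cadherin and P-cadherin (Cdh3).

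The genes share an exon structure as well as a name, and this allows reads to be compared over a matched stretch. A coding exon of exactly 254 bp is present in 7 of the 9 genes, against 92 of 14983 genes (0.614%) with such an exon. The exons at this place in Cdh1 and Cdh3 are 245 and 242 bp. The exon is shown for 4 genes that between them had their highest level in each of the 3 libraries, Cdh11, Cdh13, Cdh10 and Cdh19, read from the GENCODE M21 transcripts on mm10 and written 5′ to 3′ along the gene's own strand. Capitals mark the 43 positions (16.9%) at which all 4 genes have the same base. Cdh11 exon 8 is at chr8:102658189-102658442 (minus strand), Cdh13 exon 10 at chr8:119242190-119242443 (plus strand), Cdh10 exon 7 at chr15:18986687-18986940 (plus strand) and Cdh19 exon 7 at chr1:110924996-110925249 (minus strand).
Cdh11: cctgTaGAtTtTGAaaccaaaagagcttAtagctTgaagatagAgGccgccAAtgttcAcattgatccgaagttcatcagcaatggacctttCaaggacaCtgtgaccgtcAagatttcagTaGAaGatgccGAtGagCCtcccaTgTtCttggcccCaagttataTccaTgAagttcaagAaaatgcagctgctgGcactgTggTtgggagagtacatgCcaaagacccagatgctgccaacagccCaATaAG
Cdh13: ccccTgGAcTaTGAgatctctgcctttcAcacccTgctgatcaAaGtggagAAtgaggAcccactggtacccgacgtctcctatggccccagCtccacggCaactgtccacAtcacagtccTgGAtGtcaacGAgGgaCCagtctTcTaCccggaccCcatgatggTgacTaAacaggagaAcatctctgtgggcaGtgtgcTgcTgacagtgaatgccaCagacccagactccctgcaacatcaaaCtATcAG
Cdh10: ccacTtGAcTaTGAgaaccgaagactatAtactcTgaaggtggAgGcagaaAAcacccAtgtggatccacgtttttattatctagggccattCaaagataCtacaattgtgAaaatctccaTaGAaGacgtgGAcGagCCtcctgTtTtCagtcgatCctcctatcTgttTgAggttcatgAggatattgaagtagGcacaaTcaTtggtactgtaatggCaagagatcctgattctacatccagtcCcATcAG
Cdh19: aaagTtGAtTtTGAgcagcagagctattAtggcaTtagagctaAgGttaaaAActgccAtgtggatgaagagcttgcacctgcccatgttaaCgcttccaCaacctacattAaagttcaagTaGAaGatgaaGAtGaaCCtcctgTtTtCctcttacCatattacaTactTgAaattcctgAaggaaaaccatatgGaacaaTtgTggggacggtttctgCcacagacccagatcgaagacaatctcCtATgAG
Cdh10 and Cdh11, both type II, have the same base at 144 of the 254 positions (56.7%), and Cdh10 and Cdh13 at 82 (32.3%). The longest stretch in capitals is 3 bases. No stretch of 30 bases is shared by the transcripts of any of the 36 pairs of the 9 genes, so a read that matches one of these genes over 30 bases without a mismatch does not match another of them. On this exon alone, Cdh19 had 0 reads in MEF, 69 in Dox (-) and 4 in Dox (+). Cdh10 had 169, 98 and 19 reads in the same order. Cdh11 had 2542, 9468 and 4780 reads, and Cdh13 had 421, 261 and 679. These 4 genes were chosen for their different highest libraries. On this exon too, Dox (-) was highest for Cdh11 and Cdh19, MEF for Cdh10 and Dox (+) for Cdh13. Of the other genes with this exon, Cdh2 had 1241, 980 and 1059 reads, Cdh4 1, 26 and 16, and Cdh6 10, 96 and 89.

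Levels are given in 2 ways. The level of the study is the highest RPKM among a gene's exons, where RPKM divides the reads on an exon by its length in kb and by library depth. The coding-exon level divides all reads on the wholly coding exons of the transcript with the longest coding sequence by their summed length, and is used to compare genes. Depth was recovered from the values themselves as 45000000 reads in MEF and in Dox (-) and 44000000 in Dox (+), at which 96.9% to 97.2% of low values were whole reads within 0.02. No condition has a replicate, so the spread between cultures is unknown. Intervals are exact 95% Poisson or binomial intervals that cover counting error only, and a read that crosses a junction may have been counted on both exons. Mitf itself had a highest-exon level of 1.52 RPKM in MEF, 30.8 in Dox (-) and 1544 in Dox (+).

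Cdh11 was the leading cadherin in all 3 libraries. Its coding-exon level was 246 RPKM in MEF (95% interval 242 to 249), 947 in Dox (-) (940 to 954) and 483 in Dox (+) (478 to 489). Cdh2 came next in each of them, at 119, 95.1 and 108 RPKM. In MEF the order went on with Cdh3 (77.6), Cdh13 (41.2), Cdh10 (15.9), Cdh1 (11.3) and Cdh6 (0.484), and ended with Cdh4, on which 1 read fell, and Cdh19, on which none fell. In Dox (-), Cdh3 (44.3) and Cdh13 (20.9) were followed by Cdh6 (10.9), Cdh19 (10.4) and Cdh10 (10.4), then by Cdh4 (1.89) and Cdh1 (0.491). In Dox (+), Cdh13 (59.2) stood before Cdh3 (12.4), Cdh6 (8.68), Cdh10 (2.27), Cdh4 (1.30), Cdh19 (0.321) and Cdh1 (0.256). Neighbours in these orders whose counting intervals overlapped were Cdh4 and Cdh19 in MEF, Cdh6 and Cdh19 and also Cdh19 and Cdh10 in Dox (-), and Cdh19 and Cdh1 in Dox (+).

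**Figure D1:**
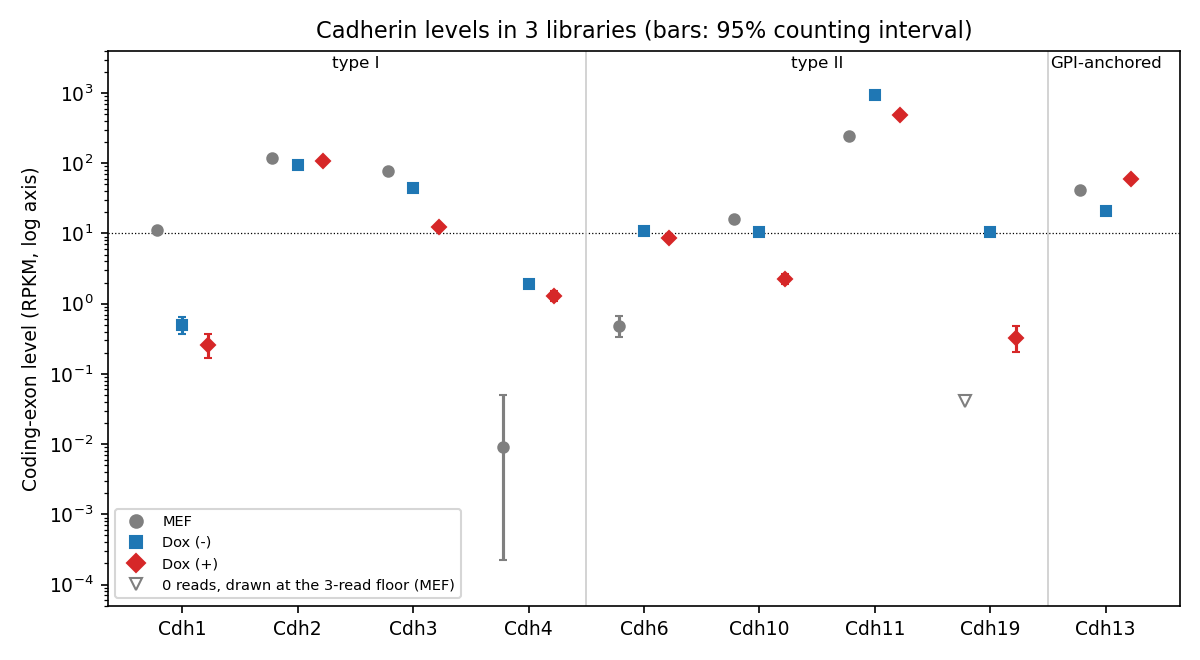
Coding-exon level in RPKM (log axis) of the 9 cadherins in the 3 libraries, 1 point per library, with 95% counting intervals. The open triangle is Cdh19 in MEF, with 0 reads, drawn at the level of 3 reads, and the dotted line is 10 RPKM. Cdh2 stays between 95.1 and 119 RPKM, whereas Cdh1, Cdh4, Cdh6 and Cdh19 differ between libraries by more than 10-fold.

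Cdh1 encodes E-cadherin, the cadherin of epithelial adherens junctions, and was seen almost only in MEF. The gene is on chromosome 8 (106603351 to 106670246, plus strand, mm10). Its highest-exon level was 21.7 RPKM in MEF, 1.08 in Dox (-) and 0.697 in Dox (+), and its coding exons held 1217, 53 and 27 reads. Both knock-in libraries were thus far below MEF and close to each other. The coding-exon level was 23.0-fold lower in Dox (-) than in MEF (95% counting interval 17.4 to 30.8) and 44.1-fold lower in Dox (+) than in MEF (30.1 to 67.2). All 14 coding exons were lower in each knock-in library than in MEF, each by more than 4-fold. The difference between Dox (+) and Dox (-) was 1.92-fold (1.19 to 3.17) on 27 and 53 reads, under the level of 10 RPKM at which genes were called. In MEF, the Cdh1 exons nearest the 5′ end had the lowest levels, 2.57 RPKM on coding exon 2 against a highest coding exon of 17.4.

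Cdh3 encodes P-cadherin, found in basal keratinocytes and hair follicles, and had its lowest level in Dox (+). It lies next to Cdh1 on chromosome 8 (106510891 to 106557297, plus strand). Its highest-exon level was 103.7 RPKM in MEF, 58.9 in Dox (-) and 15.7 in Dox (+), on 7725, 4403 and 1208 coding-exon reads. Dox (+) was the low library, and Dox (-) lay between it and MEF. Coding-exon levels were 3.56-fold lower in Dox (+) than in Dox (-) (3.34 to 3.80), 6.25-fold lower in Dox (+) than in MEF (5.88 to 6.65) and 1.75-fold lower in Dox (-) than in MEF (1.69 to 1.82). All 14 coding exons were lower in Dox (+) than in Dox (-), by 2.72- to 4.52-fold. The counting intervals of the ratio of MEF to Dox (-) thus do not overlap between these neighbouring genes, at 17.4 to 30.8 for Cdh1 and 1.69 to 1.82 for Cdh3.

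Cdh2 encodes N-cadherin, the cadherin of mesenchymal and neural cells, and was the steadiest of the 9. Its highest-exon level was 164 RPKM in MEF, 150.4 in Dox (-) and 147 in Dox (+), on 13102, 10507 and 11615 coding-exon reads. The libraries stayed within a narrow range, and the direction between Dox (+) and Dox (-) depended on the measure. By the highest exon Dox (+) was 1.03-fold lower, and by the coding exons it was 1.13-fold higher (1.10 to 1.16), with 13 of 14 coding exons higher. With the median ratio of all genes set to 0, the log2 difference by the highest exon was -0.26.

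Cdh4 encodes R-cadherin, named for the retina, and was weak throughout. Its coding exons held 1 read in MEF, 211 in Dox (-) and 142 in Dox (+). MEF was thus near the limit of detection, and the knock-in libraries were both above it. The ratio of Dox (-) to MEF was 211, with a counting interval of 37.5 to 8373, and that of Dox (-) to Dox (+) was 1.45 (1.17 to 1.81). The highest-exon level of 5.73 RPKM in Dox (-) rests on 8 reads on an exon of 31 bp, and no library passed 10 RPKM.

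Cdh11 encodes cadherin-11, also called OB-cadherin, which is made by mesenchymal cells and osteoblasts. It is on chromosome 8 (102632095 to 102785642, minus strand). The highest-exon level was 366 RPKM in MEF, 1369 in Dox (-) and 647 in Dox (+), on 18432, 71018 and 35439 coding-exon reads. Dox (-) was the high library and MEF the low one. The coding-exon level was 3.85-fold higher in Dox (-) than in MEF (3.79 to 3.92) and 1.96-fold lower in Dox (+) than in Dox (-) (1.93 to 1.98), which left Dox (+) 1.97-fold above MEF (1.93 to 2.0). Each of the 9 coding exons had the same order of libraries, and their ratios were close to each other, from 3.5 to 4.18 for Dox (-) over MEF and from 1.81 to 2.12 for Dox (-) over Dox (+).

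Cdh6 encodes K-cadherin, known from the developing kidney and the neural crest. It is on chromosome 15 (13028701 to 13173675, minus strand). Its highest-exon level was 0.875 RPKM in MEF, 15.5 in Dox (-) and 12.7 in Dox (+), on 36, 809 and 632 coding-exon reads. The knock-in libraries were close to each other and MEF was far below them. Coding-exon levels were 22.5-fold higher in Dox (-) than in MEF (16.1 to 32.3) and 18.0-fold higher in Dox (+) than in MEF (12.8 to 25.9), on all 9 coding exons. Between Dox (-) and Dox (+) the ratio was 1.25 (1.13 to 1.39).

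Cdh10, a type II cadherin best known from the brain, is also on chromosome 15 (18818947 to 19014236, plus strand). Its highest-exon level was 25.3 RPKM in MEF, 15.3 in Dox (-) and 3.82 in Dox (+), on 1175, 770 and 164 coding-exon reads. The order of the libraries was that of Cdh3, with Dox (+) lowest. The coding-exon level was 4.59-fold lower in Dox (+) than in Dox (-) (3.87 to 5.47), 7.01-fold lower in Dox (+) than in MEF (5.94 to 8.30) and 1.53-fold lower in Dox (-) than in MEF (1.39 to 1.67). All 9 coding exons were lower in Dox (+) than in Dox (-), by 3.37- to 6.11-fold. The RefSeq promoter table (GRCm38.p6, from 250 bases before to 50 after the gene start) held entries for 2 of the 9 genes, Cdh10 and Cdh6. It was searched for E-box motifs, among which the study gives CATGTG as the one bound by MITF. The motif CATGTG, searched on both strands, occurs in the Cdh10 window, 201 bases before the start that the table uses, and in 14.2% of all 32851 promoters. That start is of a shorter transcript and lies downstream of the outermost start given above, so the motif is inside the gene as annotated. It is shown in capitals, as its reverse complement, in 30 bases at chr15:18820116-18820145 (plus strand).
Cdh10 promoter: tatccaaagcggCACATGcattgctactct
CACGTG (7.15% of promoters) and CAGGTG (20.2%) have no match in the Cdh10 window, and none of the 3 motifs has a match in the Cdh6 window.

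Cdh19 encodes a type II cadherin of neural crest derivatives, known from Schwann cell precursors and glia. It is on chromosome 1 (110888326 to 110977584, minus strand). The highest-exon level was 0.0224 RPKM in MEF, 14.4 in Dox (-) and 0.722 in Dox (+), and the coding exons held 0, 763 and 23 reads. For the 0 in MEF, the floor of 3 reads is a coding-exon level of 0.0409 RPKM, and the exact interval reaches 0.0503 RPKM. Cdh19 was therefore high in Dox (-) alone. Against that floor Dox (-) was at least 254-fold higher than MEF, with an exact lower limit of 206-fold for the ratio itself, and Dox (+) was 32.4-fold lower than Dox (-) (21.5 to 51.5). All 9 coding exons were lower in Dox (+) than in Dox (-), by 16.9- to 76.3-fold.

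Cdh13 encodes T-cadherin, which lacks the tail that binds catenins. It is on chromosome 8 (118283733 to 119324921, plus strand). The highest-exon level was 49.8 RPKM in MEF, 26.3 in Dox (-) and 73.8 in Dox (+), on 3880, 1967 and 5446 coding-exon reads. Here Dox (-) was the low library and Dox (+) the high one. By coding exons, Dox (+) stood 2.83-fold above Dox (-) (2.69 to 2.98), with all 12 coding exons higher by 2.38- to 3.30-fold, and 1.44-fold above MEF (1.38 to 1.5). No other cadherin of the 9 was higher in Dox (+) than in Dox (-) by more than 1.13-fold on coding exons.

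**Figure D2:**
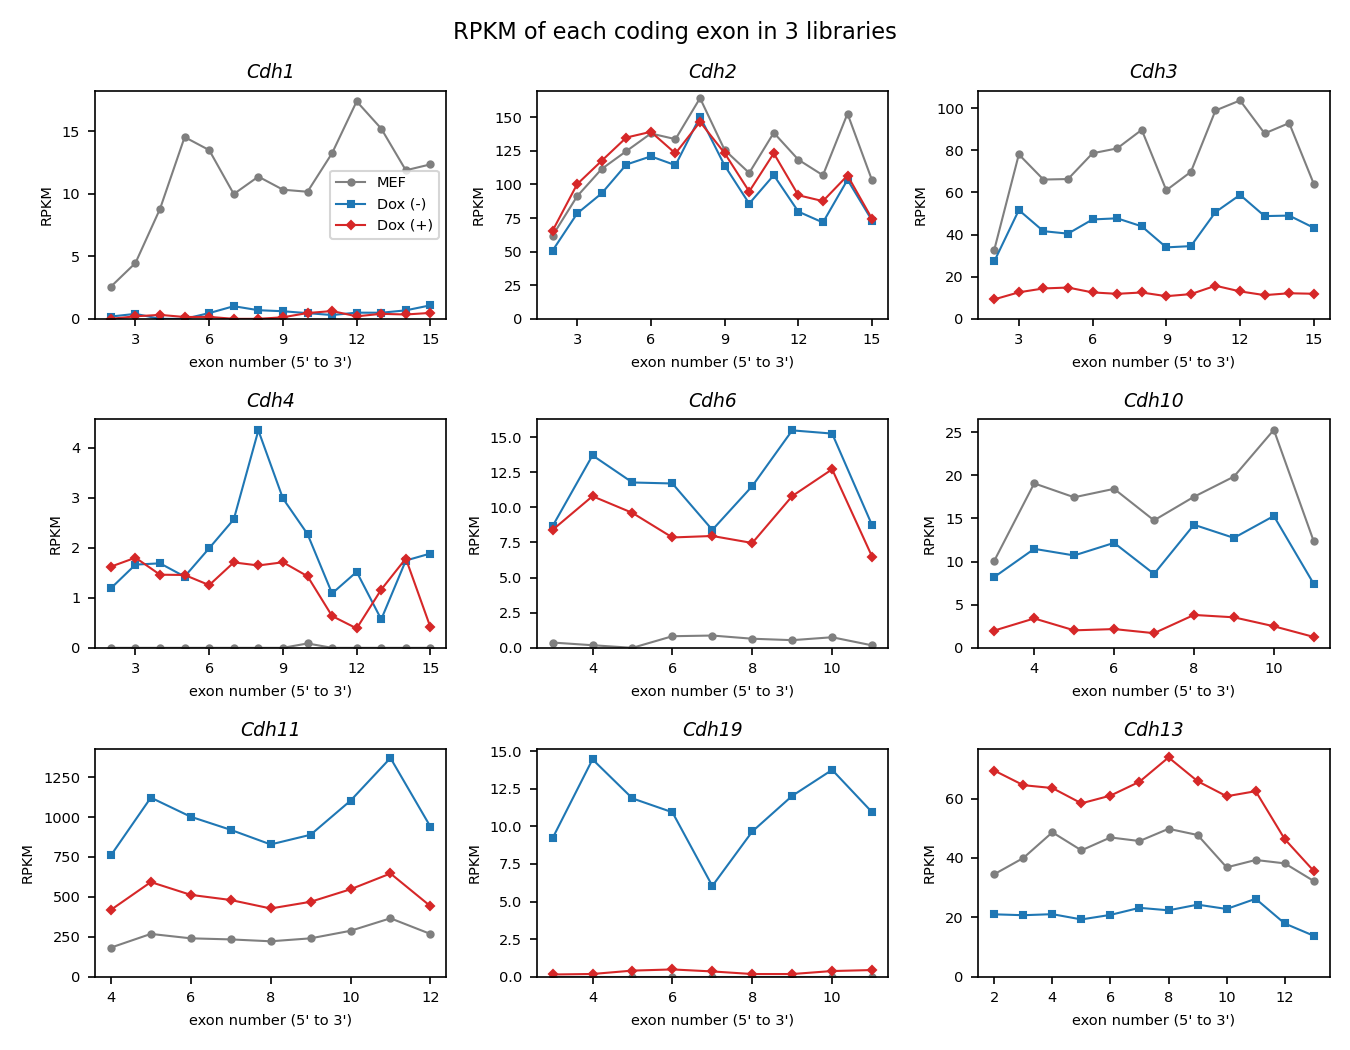
RPKM of every wholly coding exon against its number in the transcript, from 5' to 3', for the 9 genes and 3 libraries (each panel has its own linear axis from 0). The libraries keep their order along Cdh3, Cdh6, Cdh10, Cdh11, Cdh13 and Cdh19, and cross in Cdh2 and Cdh4. In Cdh1, Dox (-) and Dox (+) cross at low levels, below MEF.

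Whether a ratio held along a gene was also read from its coding exons nearest the 5′ end and nearest the 3′ end, with 1 of every 3 exons at each end, since the ends of transcripts can be covered unequally. Over 4099 genes above 10 RPKM in both libraries, the log2 ratio of Dox (+) to Dox (-) was higher at the 5′ end than at the 3′ end by a median of 0.20. Cdh13 was 3.11-fold higher in Dox (+) at its 5′ end and 2.56-fold at its 3′ end, a log2 difference of 0.28. Cdh3 had a ratio of 0.331 at the 5′ end and 0.238 at the 3′ end, and Cdh11 had 0.533 and 0.478. For these 3 genes the direction was the same at either end. Cdh2 (1.24 and 1.12), Cdh6 (0.872 and 0.756), Cdh10 (0.239 and 0.201) and Cdh19 (0.0214 and 0.0311) kept their direction too. The weakly expressed Cdh1 had ratios of 1.02 and 0.536, and Cdh4 1.04 and 0.653. Few reads lie behind their 5′ ratios, which are near 1 and show no direction. Cdh1 exons 2 to 5 held 1, 4, 0 and 0 reads in Dox (-), and 0, 2, 2 and 1 in Dox (+). Cdh4 exons 2 to 5 held 6, 17, 13 and 10 reads in Dox (-), and 8, 18, 11 and 10 in Dox (+).

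The question of the first comparison was which cadherins differed after Mitf was induced. No library is of Dox-treated cells without the Mitf knock-in, so Dox itself cannot be told apart from Mitf here. A gene was called where its highest-exon levels differed by more than 4-fold and the larger of them passed 10 RPKM. Between Dox (+) and Dox (-), 7 of the 9 cadherins passed 10 RPKM. None was called higher, with 1.64% of all 13307 genes called so, and 2 were called lower, Cdh10 (4.01-fold) and Cdh19 (20.02-fold), with 5.41% of all genes called lower. Cdh10 was just inside the threshold and Cdh3, at 3.74-fold, just outside it. On the log2(RPKM + 1) scale the 2 type I cadherins above 10 RPKM were both below 0, Cdh2 at -0.04 and Cdh3 at -1.84, with a median of -0.94. The median of the 4 type II cadherins was -1.42, and all 4 were below 0, against a median of 0.23 over all genes tested. That median of all genes is a shift between the libraries, and after it was removed Cdh3 stood at -2.05, Cdh10 at -1.93, Cdh11 at -1.31, Cdh19 at -3.26, Cdh6 at -0.47 and Cdh13 at 1.23.

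Dox (-) was set against MEF to see how far the knock-in MEFs differed from wild-type MEFs without Dox. Of the 8 cadherins above 10 RPKM in either library, 2 were called higher in Dox (-), Cdh6 (17.7-fold) and Cdh19, while 8.26% of all 13234 genes were called higher. Cdh1 was called lower (20.1-fold), as were 1.21% of all genes. Cdh11 was 3.74-fold higher by the highest exon, just outside the threshold. The other members above 10 RPKM, Cdh2, Cdh3, Cdh10 and Cdh13, were lower in Dox (-) by 1.09-, 1.76-, 1.65- and 1.90-fold.

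For Dox (+) against MEF, a comparison that shares its libraries with the other two, Cdh6 was called higher (14.5-fold), with 6.55% of all 12941 genes called higher. Cdh1 (31.1-fold), Cdh3 (6.60-fold) and Cdh10 (6.63-fold) were called lower, with 3.40% of all genes called lower. Over all genes this was 848 higher and 440 lower, and 622 higher and 541 lower with the median ratio set to 0. The median log2 difference of all genes tested was 0.27. Relative to that shift Cdh13 stood at 0.29, Cdh11 at 0.55 and Cdh2 at -0.43.

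**Figure D3:**
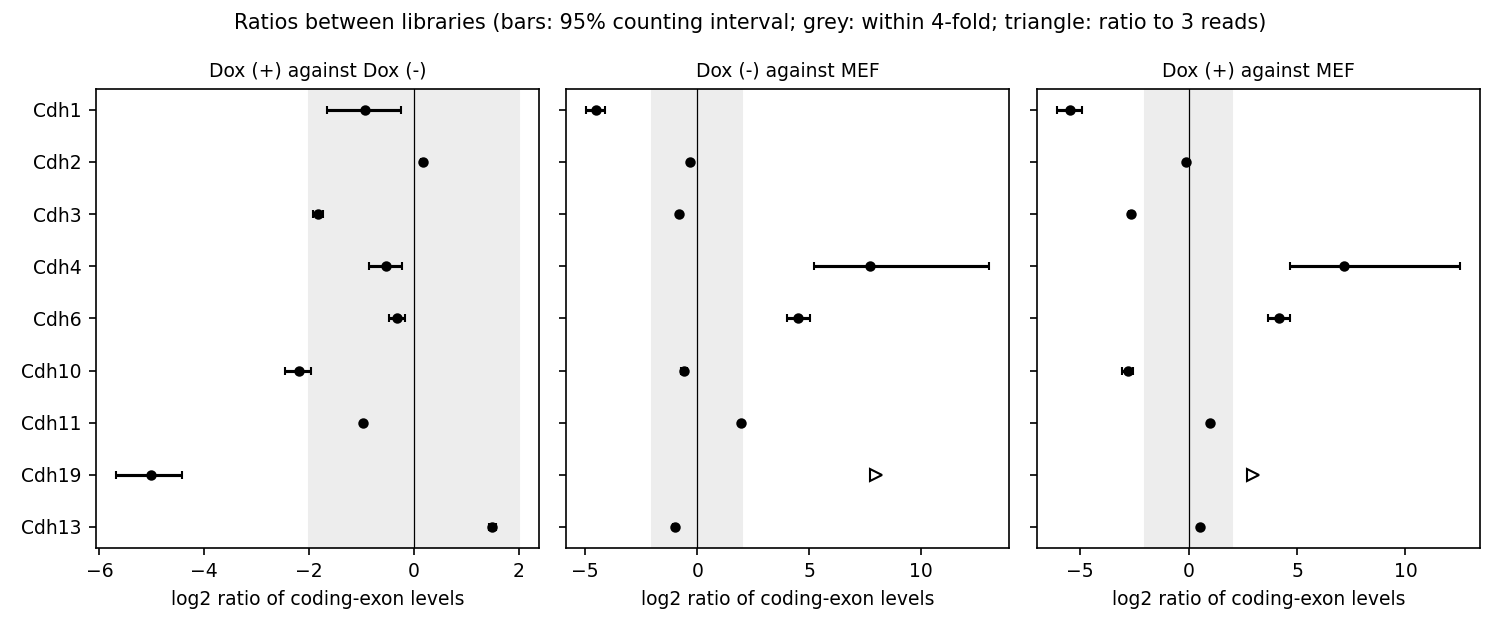
log2 ratio of coding-exon levels of the 9 cadherins in the 3 comparisons between libraries, with 95% counting intervals. Grey marks ratios within 4-fold, and open triangles mark Cdh19 against MEF, where MEF had 0 reads and the ratio to a floor of 3 reads is drawn, without an interval. Cdh10 and Cdh19 lie below the grey band in Dox (+) against Dox (-), and Cdh1 lies far below it in both comparisons with MEF.

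Because RPKM is per length, the 9 levels can be added. Their sum of coding-exon levels was 511 RPKM in MEF, 1142 in Dox (-) and 675 in Dox (+). The type I cadherins made up 40.6% of it in MEF, 12.4% in Dox (-) and 18.0% in Dox (+). Type II cadherins made up 51.3%, 85.8% and 73.2%, of which nearly all was Cdh11, with 48.1%, 83.0% and 71.6% of the whole. Cdh13 made up 8.07%, 1.83% and 8.76%.

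**Figure D4:**
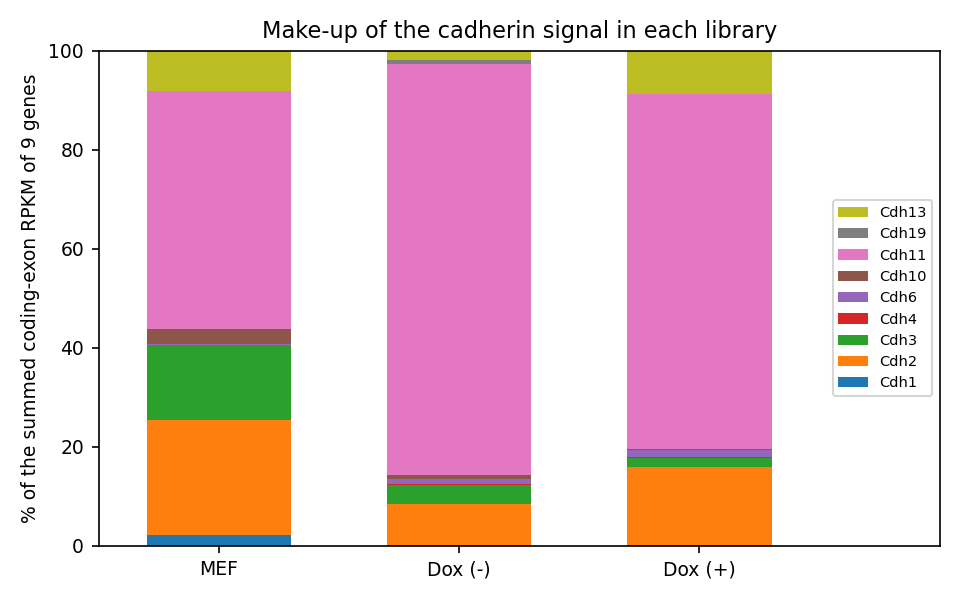
Share of each cadherin, in percent, in the summed coding-exon RPKM of the 9 genes in each library. Cdh11 takes 48.1% in MEF, 83.0% in Dox (-) and 71.6% in Dox (+), and Cdh3 and Cdh1 are widest in MEF.

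The partners of cadherins inside the cell were described by lists of genes. Of the 9 catenins listed, 7 passed 10 RPKM in Dox (+) or Dox (-), and 1 was called lower, Ctnna2, the neural alpha-catenin, beside 5.41% of all genes tested. Its highest-exon level was 0.274 RPKM in MEF, 17.4 in Dox (-) and 1.71 in Dox (+), an order of libraries like that of Cdh19. Beta-catenin (Ctnnb1) had coding-exon levels of 697, 755 and 986 RPKM in MEF, Dox (-) and Dox (+), and alpha-catenin (Ctnna1) 349, 320 and 523. Pkp4, a p120-catenin relative, had 29.6, 27.1 and 21.8 RPKM. Of 14 junction adaptors and nectins, 13 passed 10 RPKM and none was called between Dox (+) and Dox (-) by the highest exon. Those that differed most were Plekha7, which binds p120-catenin, with highest-exon levels of 3.42, 10.9 and 39.1 RPKM. By coding exons Plekha7 had 0.836, 3.00 and 13.8 RPKM, and on that measure it would be called higher in Dox (+). The others were the polarity protein Pard3, with coding-exon levels of 23.9, 25.8 and 60.2 RPKM, and the actin crosslinker Actn4, with 741, 847 and 1603.

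Genes known to repress Cdh1 in mesenchymal cells were present in each library. Of 12 such genes, 9 passed 10 RPKM in Dox (+) or Dox (-) and none was called between them. The 3 with the largest differences were Twist2, with highest-exon levels of 8.85, 56.8 and 111 RPKM in MEF, Dox (-) and Dox (+), Zeb1 with 77.8, 88.1 and 133, and Snai2 with 65.3, 44.1 and 25.5. In Dox (-) against MEF, 3 of 10 were called higher, Zeb2, Twist2 and Prrx1, beside 8.26% of all genes tested. By any amount, 5 of the 10 were higher and 5 lower, with a median log2(RPKM + 1) difference of 0.08. Cdh1 was lower in Dox (-) there, and the part of these genes in its level was not tested. Of 9 epithelial activators 8 are listed, and Klf5 alone passed 10 RPKM in Dox (+) or Dox (-), at 27.4, 8.15 and 22.3 RPKM in the 3 libraries. In MEF Esrp2 also passed 10 RPKM, with highest-exon levels of 15.8, 7.31 and 6.87 RPKM in the 3 libraries. Its coding-exon levels were 4.54, 2.57 and 1.84 RPKM, with MEF highest, as for Cdh1. Others of the list were low and did not share 1 order. By the highest exon, MEF was lowest for Grhl1 (0.198, 3.08 and 2.13 RPKM) and Grhl3 (0, 0.717 and 0.699). It was highest for Elf3 (0.570, 0 and 0.0563), and Ovol1 had 0.336, 0.367 and 0.322. Grhl2 reached at most 0.529 RPKM and Esrp1 is listed at 0 in all 3 libraries.

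Among 13 proteases that process or cleave cadherins, all passed 10 RPKM and 1 was called lower in Dox (+) than in Dox (-), beside 5.41% of all genes tested. This was Pcsk5, a proprotein convertase, with 11.0 RPKM in MEF, 54.2 in Dox (-) and 8.56 in Dox (+). The sheddases Adam17 (121, 161 and 74.3 RPKM) and Adam9 (447, 549 and 326) were lower in Dox (+) than in Dox (-) by less than 4-fold. Of 11 other type I and type II cadherins 10 are listed, and Cdh18 alone passed 10 RPKM. Its highest-exon level of 104 RPKM in MEF came from an exon of 13 bp, and by its coding exons Cdh18 had 14.9 RPKM in MEF, 2.47 in Dox (-) and 1.17 in Dox (+), on 1111, 184 and 85 reads. Cdh5, the endothelial VE-cadherin, and Cdh15, the muscle M-cadherin, were at most 1.09 and 0.345 RPKM.

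Markers of other cell types moved between the libraries too, and in bulk RNA fewer cells of a type cannot be told apart from less RNA per cell. The 8 fibroblast markers summed to 18350 RPKM in MEF, 45433 in Dox (-) and 11943 in Dox (+), most of it from the collagens Col1a1, Col1a2 and Col3a1. Of the 8, Col1a1, Col1a2, Col3a1 and Lum were called lower in Dox (+) than in Dox (-), beside 5.41% of all genes tested. Thy1 went the other way, with 2014 RPKM in Dox (-) and 3608 in Dox (+). In MEF Lum was at 6.07 and Pdgfra at 18.9 RPKM. Cdh11 had its highest level in Dox (-) as well. The 8 macrophage markers summed to 54.3, 12945 and 472 RPKM. All 8 were called higher in Dox (-) than in MEF, beside 8.26% of all genes tested. They were also all called lower in Dox (+) than in Dox (-), beside 5.41% of all genes tested. The 5 Schwann cell markers reported here summed to 7.09, 23.4 and 10.1 RPKM, none passed 10 RPKM, and Foxd3 was at most 0.993. Foxd3, Mbp, Erbb3 (1.23, 8.62 and 2.15 RPKM) and Sox10 (0.0514, 6.69 and 1.66) were highest in Dox (-). S100b was lowest there, at 4.72, 3.35 and 4.51 RPKM. Cdh19 and Ctnna2 had their highest level in Dox (-), as did the sums of both lists, and the part of other cells in this was not tested. The 6 keratinocyte markers summed to 49.5, 12.2 and 35.4 RPKM, of which Krt14 made 32.8, 2.12 and 26.9, while Krt5 was at most 0.206. Trp63 (6.16, 1.78 and 0.288 RPKM) and Krt10 (6.27, 5.57 and 4.21) had the same order of libraries as Cdh1 and Cdh3. Both were below 10 RPKM in each library. The other keratinocyte markers had other orders. Krt14 and Krt15 were lowest in Dox (-), and Krt5 and Krt1 were at 0 RPKM in MEF. The 5 markers of simple epithelium summed to 7.53, 8.11 and 11.1 RPKM, with Epcam at most 1.68. The part of epithelial cells in the Cdh1 level of MEF was not tested. The 8 melanocyte markers summed to 4.97, 41.5 and 318 RPKM. Most of this was Mlana (133), Tyrp1 (110) and Ednrb (53.5) in Dox (+), and Ednrb (26.7) in Dox (-). Tyr reached 2.37 RPKM in Dox (+). From Dox (-) to Dox (+), Dct went from 0.798 to 0.900 and Sox10 from 6.69 to 1.66. The 6 endothelial markers summed to 9.37, 17.8 and 5.78, and the 5 neuronal markers to 224, 110.4 and 37.3, of which Map2 made 194, 57.1 and 13.0. Of the 6 muscle markers 5 are listed, and Des alone exceeded 1 RPKM, at 11.6, 571 and 1805.

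The genes nearest to each cadherin above 10 RPKM in at least 1 library were sought, which left out Cdh4. They were found by the Euclidean distance of log2(RPKM + 1) of highest-exon levels over the 3 libraries, which describes 3 points and no more. For Cdh19 they were Tnip3 (distance 0.16), Il10ra (0.22) and Arl11 (0.26). For Cdh10 they were Cdca5 (0.19), Kif20b (0.27) and Ttk (0.28), and for Cdh3 they were Pdgfd (0.19), Zfp521 (0.20) and Melk (0.30). Cdh6 was nearest to Apcdd1 (0.24), Tbx2 (0.36) and Peli2 (0.36), and Cdh13 to Dctd (0.22), Pdss2 (0.24) and Agtrap (0.25). Cdh11 had no gene nearer than Itga5 (0.45), followed by Spag9 (0.46) and Ifitm3 (0.55). For Cdh1 the nearest were Asb4 (0.36), Duxbl3 (0.53) and Klra1 (0.64), and for Cdh2 they were Ythdc1 (0.064), Nfkb1 (0.077) and Casp8 (0.092).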

How the data were processed

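The RNA-seq libraries were poly(A) selected and prepared with a kit that does not mark strand. Per the labels, the authors used bcl2fastq 2.17.1.14, aligned to mm10 with TopHat2 2.0.10 and used bedtools for counts on Ensembl exons. The deposited values are RPKM per exon. Columns were assigned to samples by name only, 1 column matched no label and was not used, and PMel was therefore not analysed here. Exons were matched to GENCODE M21 (228132 of 234718), and protein coding, pseudogene and lincRNA genes were kept. Reads were recovered with the depth that made most values below 200 reads whole. No p-values were computed, as there was 1 library per condition. Genes named are the 9 cadherins, Mitf, markers and the 3 genes nearest to each cadherin but Cdh4. Also named are the 3 genes per pathway list with the largest difference between Dox (+) and Dox (-) above 10 RPKM. Others (Ctnnb1, Zeb2, Prrx1, Grhl1, Grhl2, Grhl3, Ovol1, Elf3, Esrp1, Esrp2, Cdh5, Cdh15) were chosen from the lists after their values were seen. The cadherins and lists were chosen with earlier results of these data known, and Dox (+) against MEF was added after the data were seen. Some markers of the Schwann cell list are not reported here. Alternatives changed the thresholds, the pseudocount of 1 RPKM, the exons used and the scaling. Steps were tested on simulated data. Python 3.11.15, pandas 2.3.3, NumPy 2.4.6, SciPy 1.17.1 and matplotlib 3.10.9 were used.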

Additional observations from a re-analysis of the deposited data

How the results depend on the processing

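Calls and counts depend on thresholds taken over 1 library per condition, so they have no replicate check, and low members (Cdh1, Cdh4 and Cdh19 in some libraries) rest on few reads. No paired analysis was possible because each condition had 1 library and the result comes from no test; leaving out a replicate was not possible either. The planned comparisons with PMel were not run. Counts below are given as higher then lower, and each alternative alters the set of genes tested or the fold itself. For all genes, the number tested follows each pair. In Dox (+) against Dox (-), all genes gave 478 and 1448 of 17440 above 1 RPKM, and 138 and 426 of 10582 above 30 RPKM. They gave 1287 and 3056 of 21678 with no threshold, and 1439 and 1471 of 13307 at 2-fold. At 8-fold they gave 92 and 415 of 13307, and on pooled coding exons 135 and 442 of 9469. The cadherins gave 0 lower above 30 RPKM, 1 (Cdh13) and 4 (Cdh3, Cdh10, Cdh11, Cdh19) at 2-fold, and 1 lower (Cdh19) at 8-fold. Cdh3 was also called lower, making 3, on the same exon in both libraries or after rescaling. In Dox (-) against MEF, all genes gave 2236 and 354 of 17338 above 1 RPKM, and 667 and 100 of 10463 above 30 RPKM. They gave 4211 and 999 of 21546 with no threshold, and 2285 and 1049 of 13234 at 2-fold. At 8-fold they gave 718 and 77 of 13234, and on coding exons 82 of 9421 were lower. The cadherins gave 0 and 0 above 30 RPKM, and 3 higher above 1 RPKM or with no threshold (Cdh4 added) and at 2-fold (Cdh11 added). In Dox (+) against MEF, all genes gave 1748 and 814 of 16865 above 1 RPKM, and 557 and 285 of 10407 above 30 RPKM. They gave 3345 and 1774 of 21066 with no threshold, and 2614 and 1162 of 12941 at 2-fold. At 8-fold they gave 436 and 213 of 12941, and on coding exons 255 of 9204 were lower. The cadherins gave 2 higher (Cdh4, Cdh6) above 1 RPKM, 0 and 1 (Cdh3) above 30 RPKM, 3 higher (Cdh4, Cdh6, Cdh19) with no threshold, 1 lower (Cdh1) at 8-fold, and 0 higher on coding exons, where Cdh6 was under 10 RPKM. Rescaling to a common median changed the counts of all genes to 159 and 820 of 13179 in Dox (+) against Dox (-). In Dox (+) against MEF it changed them to 622 and 541 of 12729. Of the log2 differences of the single cadherins, Cdh2 between Dox (+) and Dox (-) was the one whose sign changed under an alternative. Values of low members moved with the pseudocount: from 5 to 0.1 RPKM, Dox (-) against MEF went from 1.95 to 6.89 for Cdh19 and from 1.07 to 4.80 for Cdh4. Cdh11 led all 3 libraries at either level.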
